A study of Mus musculus with 36 samples.

Results

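The cytosolic ribosomal protein genes are the set described here. They were taken by symbol: every gene of the deposited table named as an Rpl or Rps gene, or as Rplp0, Rplp1 or Rplp2, leaving out the pseudogene symbols that end in -ps, Rpl9 and the Rps6k kinases. The rule found 84 of the 24344 genes in the table, and measured values played no part in it. Of these 84, 81 had enough counts to be tested (33 Rps genes, 45 Rpl genes and the 3 stalk genes), and the other 3 (Rps3a3, Rps12l1 and Rpl6l) had at most 4.72 counts in any library. The annotation calls 5 of the 84 pseudogenes in spite of their symbols: Rpl6l, Rps12l1, Rps3a2, Rps3a3 and Rps4l.

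The libraries came from the dorsal vagal complex, a hindbrain region. It includes the nucleus of the solitary tract, which receives signals from the gut, and the motor nucleus that sends the vagus nerve back to it. Bulk mRNA was sequenced from untreated, wild-type mice of 3 inbred strains: the common laboratory strain C57BL/6J, the wild-derived CAST/EiJ and the New Zealand obese line NZO/HlLtJ. Females and males of each strain ate a control diet with 10% fat and added fiber or a high fat, high sugar diet (HFHS) with 44% fat and added fiber from 6 weeks of age, and tissue was taken at 15 weeks. This gave 12 groups of 3 libraries, 36 in all, so 12 libraries for each strain and 6 for each strain on each diet.

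Ribosomal proteins are the protein part of the ribosome. Rps proteins bind 18S RNA to form the small subunit, which reads the mRNA, and Rpl proteins join the longer RNAs in the large subunit, which makes the peptide bond. Rplp0, Rplp1 and Rplp2 form the stalk of the large subunit, to which the elongation factors bind. Cells make the set in near equal amounts, and the mRNAs share a run of pyrimidines at their start (the TOP motif) through which the mTOR pathway controls their translation. Being short and very abundant in the germ line, these mRNAs have also been copied back into the genome many times. Most copies are processed pseudogenes that lack introns and are nearly identical to the parent mRNA, so a short read can match both.

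How far the members share sequence with other genes was measured on the GENCODE vM21 transcripts. Of the 81 tested members, 28 shared every stretch of 50 coding bases with another gene, 66 shared at least 50% of them and 15 shared less. By sequence, 618 genes were taken as copies of a member, 322 of them with a row in the count table; 118 of these 322 carry a symbol ending in -ps, and others have only a Gm number. A copy with a row in the count table was found for 68 of the tested members and none for 13. A row does not mean many counts: of the counts of Rps29 and its copies, the copies held 0.00197%. The stretches below are shown because the level of these genes turned on such pairs. Each is 60 bases of coding sequence from a member and from a copy, 5′ to 3′, with capitals at the bases that differ.
Rpl19: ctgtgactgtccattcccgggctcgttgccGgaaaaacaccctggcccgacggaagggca
Rpl19-ps11: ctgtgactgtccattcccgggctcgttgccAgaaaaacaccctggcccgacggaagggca
Rpl23a: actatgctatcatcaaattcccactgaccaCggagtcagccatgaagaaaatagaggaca
Gm10335: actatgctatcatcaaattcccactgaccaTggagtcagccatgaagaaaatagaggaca
Rpl29: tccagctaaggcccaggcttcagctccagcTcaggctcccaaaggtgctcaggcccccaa
Gm10709: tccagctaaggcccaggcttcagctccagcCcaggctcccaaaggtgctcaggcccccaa
Rps13: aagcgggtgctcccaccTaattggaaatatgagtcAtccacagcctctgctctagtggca
Rps13-ps1: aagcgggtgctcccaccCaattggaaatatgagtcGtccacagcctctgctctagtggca
Over the whole coding sequence, Rpl19 on chromosome 11 and Rpl19-ps11 on chromosome 8 were identical at 99.8% of 588 bases. Rpl23a (chromosome 11) and Gm10335 (chromosome 10) were identical at 99.8% of 468 bases, Rpl29 and Gm10709 (both on chromosome 9) at 99.2% of 480 bases, and Rps13 (chromosome 7) and Rps13-ps1 (chromosome 8) at 99.6% of 453 bases. Rps12 (chromosome 10) and Rps12-ps3 (chromosome 19) did not differ at any of 396 coding bases. In GRCm38 the copies lie at chr8:19492936-19493526 (Rpl19-ps11), chr10:14523078-14523545 (Gm10335), chr9:7751725-7752204 (Gm10709), chr8:87047689-87048226 (Rps13-ps1) and chr19:59322290-59322783 (Rps12-ps3).

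The members also shared features at their start sites that the rule did not use. RefSeq start windows (GRCm38.p6, 250 bases before to 50 after the annotated start) were found for 59 of the 84 members. An unbroken run of at least 7 C or T bases on the transcribed strand overlapped the 20 bases on either side of the start in 37 of the 59 (62.7%), and in 33.7% of all 27025 genes of that table. The letters CCGGAAG, on either strand anywhere in the window, occurred in 24 of the 59 (40.7%) and in 9.9% of all genes. These counts describe letters, not binding sites. The windows below run from 30 bases before to 20 bases after the annotated start, with that pyrimidine run in capitals, for 7 members whose mRNA levels are described further on. In the first 4 the run reaches over the annotated start, in Rpl19 it ends just before it, and in Rps12 and Rps15 it lies after and before it.
Rps6: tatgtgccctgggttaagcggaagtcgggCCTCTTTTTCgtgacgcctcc
Rpl35: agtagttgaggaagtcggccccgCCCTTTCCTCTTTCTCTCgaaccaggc
Rpl28: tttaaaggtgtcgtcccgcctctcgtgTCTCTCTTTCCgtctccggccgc
Rps9: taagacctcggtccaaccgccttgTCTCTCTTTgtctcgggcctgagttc
Rpl19: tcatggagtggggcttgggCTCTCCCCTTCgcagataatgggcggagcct
Rps12: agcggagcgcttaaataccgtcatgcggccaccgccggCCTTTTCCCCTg
Rps15: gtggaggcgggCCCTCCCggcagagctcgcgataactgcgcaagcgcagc
In GRCm38.p6 these lie at chr4:86857348-86857397 (Rps6, minus strand), chr2:39005112-39005161 (Rpl35, minus strand), chr7:4792935-4792984 (Rpl28, plus strand), chr7:3704011-3704060 (Rps9, plus strand), chr11:98026894-98026943 (Rpl19, plus strand), chr10:23787190-23787239 (Rps12, minus strand) and chr10:80292401-80292450 (Rps15, plus strand).

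Library totals ran from 22025622 to 49605959 counts. Chat and Dbh, markers of cholinergic and noradrenergic neurons of the region, were detected in every library, with median levels of 15.1 and 13.9 CPM (counts scaled by library size). The dissections were not uniform. In 3 male control libraries (2 CAST/EiJ and 1 NZO/HlLtJ), the 22 Hox genes that mark the hindbrain summed to under 5 CPM, and 1 further NZO/HlLtJ male control library (replicate 1) held 17402 CPM of pituitary hormone genes. The 5 oligodendrocyte markers were lower as a sum in CAST/EiJ, at 5551 to 10959 CPM, than in C57BL/6J, at 11740 to 15190 CPM, with 8454 to 16371 CPM in NZO/HlLtJ, and the part of cell makeup in the strain differences below was not tested. Each comparison was also run without these 3 libraries and without each library in turn.

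As a set, the members stood at a similar summed level in each strain. Their summed level ran from 7120 to 9276 CPM over the 36 libraries, with a median of 7836. In C57BL/6J the sum ran from 7120 to 8439 CPM with a mean of 7909 ± 394 (SD, n = 12), in CAST/EiJ from 7398 to 8850 CPM with a mean of 7890 ± 442, and in NZO/HlLtJ from 7356 to 9276 CPM with a mean of 7996 ± 583. The strains overlapped almost fully, and their means lay within 1 SD of each other. The highest sum, 9276 CPM, was that of the library with pituitary hormone reads, and the part of that tissue in it was not tested. Scaled by library totals alone, the sums ran from 6993 CPM (C57BL/6J female control replicate 1) to 9684 CPM, again in the library with pituitary hormone reads. In bulk samples such as these, fewer cells of a type and less RNA per cell cannot be told apart. The counted copies gave another picture. They summed to between 1126 and 1401 CPM in C57BL/6J and between 1203 and 1618 CPM in NZO/HlLtJ, but only to between 639 and 824 CPM in CAST/EiJ, so that every CAST/EiJ library was below every library of the other strains.

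**Figure D1:**
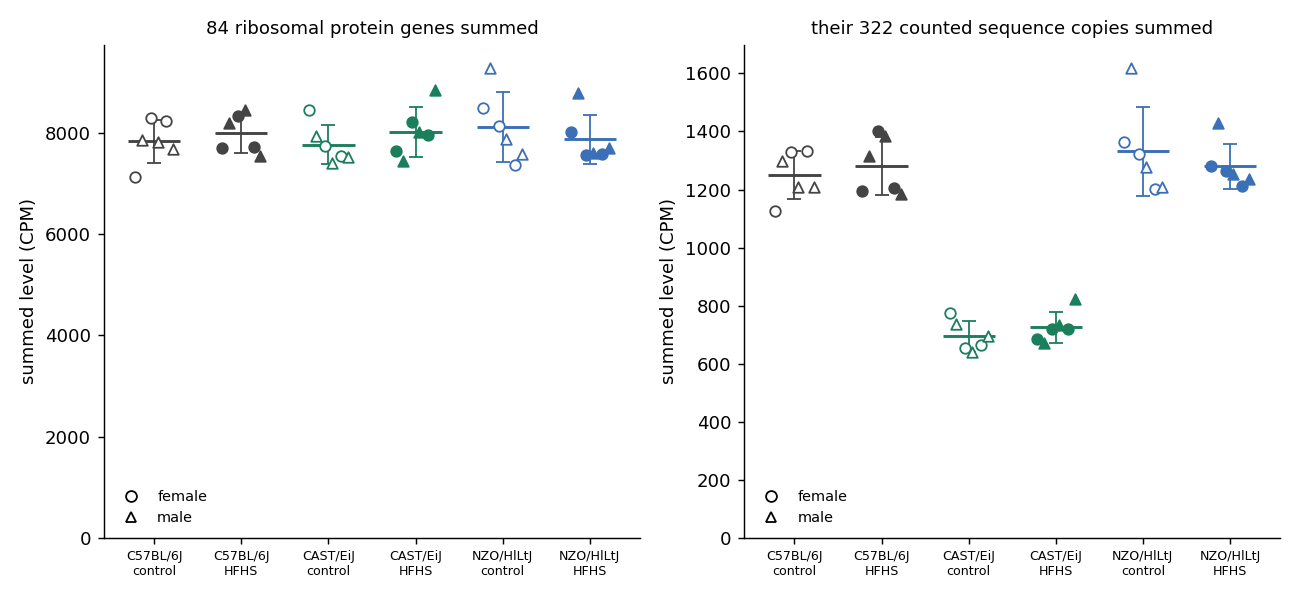
Summed level in CPM of the 84 ribosomal protein genes (left) and of their 322 counted sequence copies (right) in each library, by strain and diet (circles female, triangles male, open control, filled HFHS), with the mean as a line and the SD over 6 libraries as a bar. The sums of the genes overlap in all 6 groups, whereas the copies sum to at most 824 CPM in CAST/EiJ and to at least 1126 CPM elsewhere.

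Levels within the set were far from equal, even per length. Length is that of 1 annotated transcript per gene, and the levels depend on that choice. That transcript had 2045 bases for Rpl5, 891 of them coding, and 5130 for Rps15a, 390 of them coding. On the scale of mean CPM per kilobase of transcript, Rps15 of the small subunit had the highest mean in C57BL/6J (317 ± 26.4, SD, n = 12) and in NZO/HlLtJ (341 ± 23.02), ahead of the next member by less than 1 SD, but stood at 155 ± 11.6 in CAST/EiJ. In CAST/EiJ the large subunit gene Rpl23a was highest, at 329 ± 21.4. Of the counts of Rpl23a and its copies, the copies held 45.2% in C57BL/6J, 45.5% in NZO/HlLtJ and 0.376% in CAST/EiJ. With copies added, Rpl23a had a mean of 334 over all libraries, against 271 for Rps15, which had no counted copy. The other members near the top in each strain were Rps29 of the small subunit (298 in C57BL/6J, 299 in CAST/EiJ and 331 in NZO/HlLtJ), Rpl3, which lies near the peptidyl transferase center (302, 292 and 310), the stalk gene Rplp1 (303, 295 and 301) and Rps6, the small subunit protein phosphorylated by S6 kinases (281, 264 and 273). The order of Rps29, Rpl3 and Rplp1 differed between strains. Near the bottom of the tested members, as means over all libraries, were Rpl35 (7.67), Rpl12 (7.97) and Rpl5 (10.7), which encodes a large subunit protein that also carries 5S RNA. Their copies held most of the counts. For Rpl35, 89.8% of the counts of the gene and its copies lay on the copies, for Rpl12 89.5% and for Rpl5 85.0%. With the copies added, these 3 genes stood at 75.3, 76.0 and 71.7 CPM per kilobase. The lowest tested members were Rpl3l (0.237), a paralog of Rpl3 known from striated muscle, and the annotated pseudogene Rps3a2 (0.648).

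Strain was the comparison in which members differed. Between CAST/EiJ and C57BL/6J, 44 of the 81 members passed the test, 18 higher and 26 lower in CAST/EiJ (edgeR quasi-likelihood test, adjusted p under 0.05 over 20108 genes). Of all genes tested, 52.3% passed in that comparison, 24.5% higher and 27.8% lower, so the share of members was close to the background. The median absolute log2 difference was 0.118 for the members and 0.229 for all genes. The genes were not matched for expression level, and the part of level in these medians was not tested. The median signed difference of the members was -0.06. Between NZO/HlLtJ and C57BL/6J, 8 members passed, 3 higher and 5 lower in NZO/HlLtJ, where 24% of all genes did (11.7% higher and 12.3% lower). Between NZO/HlLtJ and CAST/EiJ, 47 passed, 35 higher and 12 lower in NZO/HlLtJ, where 50.1% of all genes did (27.3% higher and 22.8% lower). These comparisons share libraries, so their counts are not independent of each other. The labels do not say how the samples of a group relate to each other beyond being separate samples, so the p-values measure the spread between samples.

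The members with the greatest strain differences were large subunit genes and Rps12 whose counts lay on different genes in different strains. Whether reads were aligned to 1 reference for all strains or to a genome of each strain is not given in the sources used here, and the part of that choice in how counts fall between a gene and its copies was not tested. Rpl17, which encodes a protein at the peptide exit tunnel, stood between 5.29 and 9.79 CPM in C57BL/6J (median 8.37), between 158 and 189 CPM in CAST/EiJ (median 165) and between 3.33 and 8.71 CPM in NZO/HlLtJ (median 5.40). CAST/EiJ did not overlap with either of the other strains. The difference from C57BL/6J was 4.43 on the log2 scale (SE 0.10, edgeR adjusted p = 2.33e-25). The copies ran the other way: they summed to 158 ± 6.95 CPM (SD, n = 12) in C57BL/6J, 1.78 ± 1.08 in CAST/EiJ and 171 ± 14.3 in NZO/HlLtJ, nearly all of it on Rpl17-ps8. Gene and copies together stood at 166 ± 7.22, 169 ± 8.77 and 177 ± 15.1 CPM, and the log2 difference between CAST/EiJ and C57BL/6J was then 0.05 (SE 0.04, edgeR adjusted p = 0.322).

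Rpl19, a large subunit protein that reaches across to the small subunit, had the same form. Its level lay between 15.3 and 26.9 CPM in C57BL/6J (median 20.8), between 155 and 188 CPM in CAST/EiJ (median 162) and between 15.5 and 27.4 CPM in NZO/HlLtJ (median 21.8). No CAST/EiJ library was below 155 CPM and no other library above 27.4 CPM. The log2 difference from C57BL/6J was 3.02 (SE 0.11, edgeR adjusted p = 2.85e-20). Rpl19-ps11, the copy printed above, stood at 143 ± 10.6 CPM (SD, n = 12) in C57BL/6J, 0.274 ± 0.132 in CAST/EiJ and 147 ± 9.45 in NZO/HlLtJ. The sum of gene and copies was 164 ± 12.6, 166 ± 9.66 and 168 ± 11.99 CPM in that order, and its log2 difference was 0.04 (edgeR adjusted p = 0.522).

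Rpl27 and Rps12 followed. Rpl27, of the large subunit, ran from 8.38 to 11.5 CPM in C57BL/6J, from 54.0 to 70.0 CPM in CAST/EiJ and from 7.36 to 12.4 CPM in NZO/HlLtJ, with a log2 difference between CAST/EiJ and C57BL/6J of 2.68 (SE 0.06, edgeR adjusted p = 3e-24). Its copies, mostly Rpl27-ps3, stood at 58.0 ± 4.31 CPM (SD, n = 12) in C57BL/6J and 0.335 ± 0.253 in CAST/EiJ, and the difference of the sum was -0.11 (edgeR adjusted p = 0.0625). Rps12, a small subunit protein, ran from 0.693 to 7.49 CPM in C57BL/6J, from 54.4 to 74.7 CPM in CAST/EiJ and from 0.829 to 10.1 CPM in NZO/HlLtJ. CAST/EiJ was again apart from the other strains for both genes. For Rps12 the log2 difference was 4.67 (SE 0.25, edgeR adjusted p = 9.26e-16), and the summed level of gene and copies still differed, by 0.30 (SE 0.06, edgeR adjusted p = 1.32e-04), with means of 51.7 CPM in C57BL/6J, 62.9 in CAST/EiJ and 54.9 in NZO/HlLtJ.

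In a second group the copies held only part of the counts of C57BL/6J. Rpl23a, which lies at the exit tunnel, had a mean of 98.6 ± 8.79 CPM (SD, n = 12) in C57BL/6J, 184 ± 11.98 in CAST/EiJ and 107 ± 10.2 in NZO/HlLtJ. Its copy Gm10335 stood at 80.9, 0.337 and 88.8 CPM in the same order. The log2 difference between CAST/EiJ and C57BL/6J was 0.90 (SE 0.05, edgeR adjusted p = 9.12e-15) for the gene and 0.06 (edgeR adjusted p = 0.274) for the sum. Rpl27a went from 0.66 for the gene to 0.06 for the sum (edgeR adjusted p = 0.262), and Rpl10a, at 0.24 alone, went to -0.04 and no longer passed. For Rpl7 the difference turned over: the gene alone was higher in CAST/EiJ by 0.52 (SE 0.04, edgeR adjusted p = 1.76e-12), and the sum with copies, of which Gm12174 took 73.8 CPM in C57BL/6J and 0.687 in CAST/EiJ, was lower at -0.18 (SE 0.04, edgeR adjusted p = 2.32e-04).

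In other members CAST/EiJ was the strain with counts on a copy. Rpl29, of the large subunit, ran from 55.2 to 73.8 CPM in C57BL/6J (median 65.5), from 8.68 to 17.5 CPM in CAST/EiJ (median 12.3) and from 65.3 to 77.3 CPM in NZO/HlLtJ (median 68.4). The CAST/EiJ libraries were all below the others. The log2 difference from C57BL/6J was -2.37 (SE 0.07, edgeR adjusted p = 9.72e-22). Its copy Gm10709 stood at 0.0424 CPM in C57BL/6J, 42.3 in CAST/EiJ and 0.0332 in NZO/HlLtJ, and the summed difference was -0.11 (SE 0.05, edgeR adjusted p = 0.0481). Rps13, of the small subunit, had means of 61.5 ± 3.79 CPM (SD, n = 12), 32.1 ± 5.56 and 64.8 ± 4.44 in C57BL/6J, CAST/EiJ and NZO/HlLtJ, and Rps13-ps1 0.189, 32.3 and 0.378. Its difference of -0.94 (SE 0.06, edgeR adjusted p = 1.99e-13) became 0.08 (edgeR adjusted p = 0.103) in the sum. Rpl37 likewise had means of 83.7, 45.1 and 90.3 CPM, against 3.14, 44.0 and 1.55 CPM for Rpl37rt, and -0.89 (SE 0.05, edgeR adjusted p = 6.52e-15) became 0.06 (edgeR adjusted p = 0.393).

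**Figure D2:**
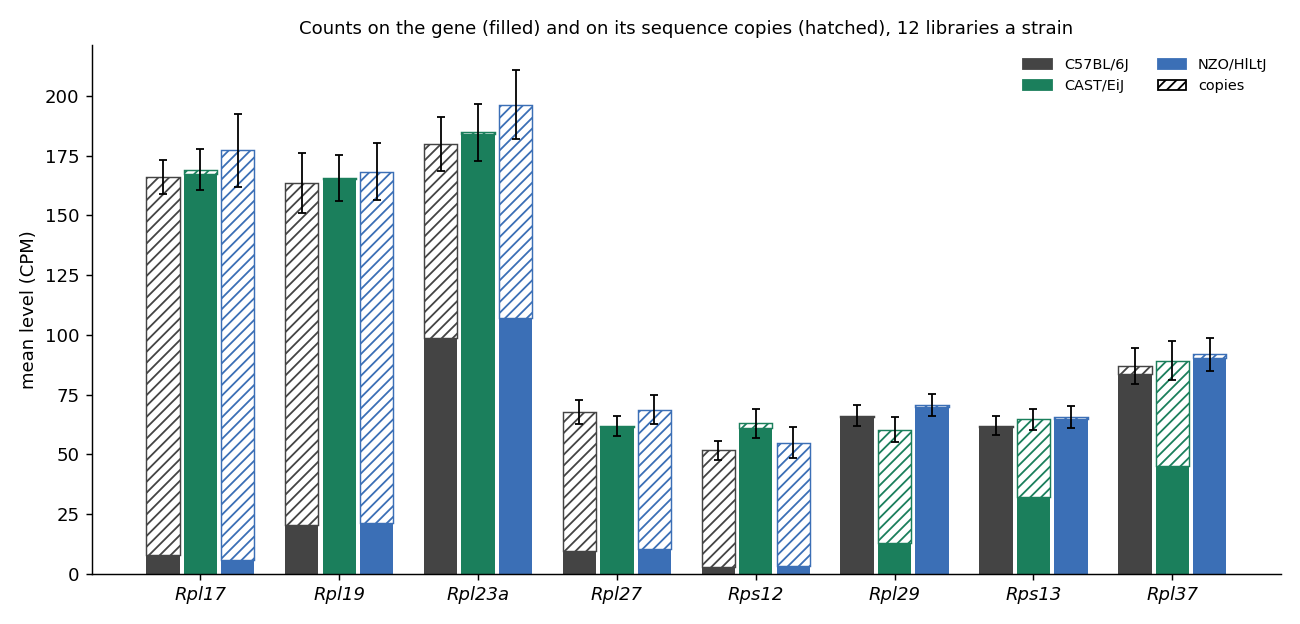
Mean level in CPM of 8 ribosomal protein genes (filled) with that of their sequence copies stacked on top (hatched) in each strain, with the SD of the sum over 12 libraries as a bar. The counts of Rpl17, Rpl19, Rpl27 and Rps12 lie mostly on copies in C57BL/6J and NZO/HlLtJ and on the gene in CAST/EiJ, those of Rpl29, Rps13 and Rpl37 lie in large part on copies in CAST/EiJ, and the totals are close.

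Over the set, adding the copies to each member lowered the number that passed between CAST/EiJ and C57BL/6J from 44 to 31, 9 higher and 22 lower, where 52.8% of all genes passed in the same fit. All 31 had also passed without copies, 29 of them with the same sign, and 13 passed only without copies. The 2 whose sign turned were Rpl5 and Rpl7. The median absolute log2 difference went from 0.118 to 0.07. Differences of at least 1 on the log2 scale were seen in 8 members without copies and in 3 with them: Rps4l, Rps15 and Rps3a2. No copy of these 3 had a row in the count table, so nothing was added to their counts. This sum was chosen after the data had been seen.

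**Figure D3:**
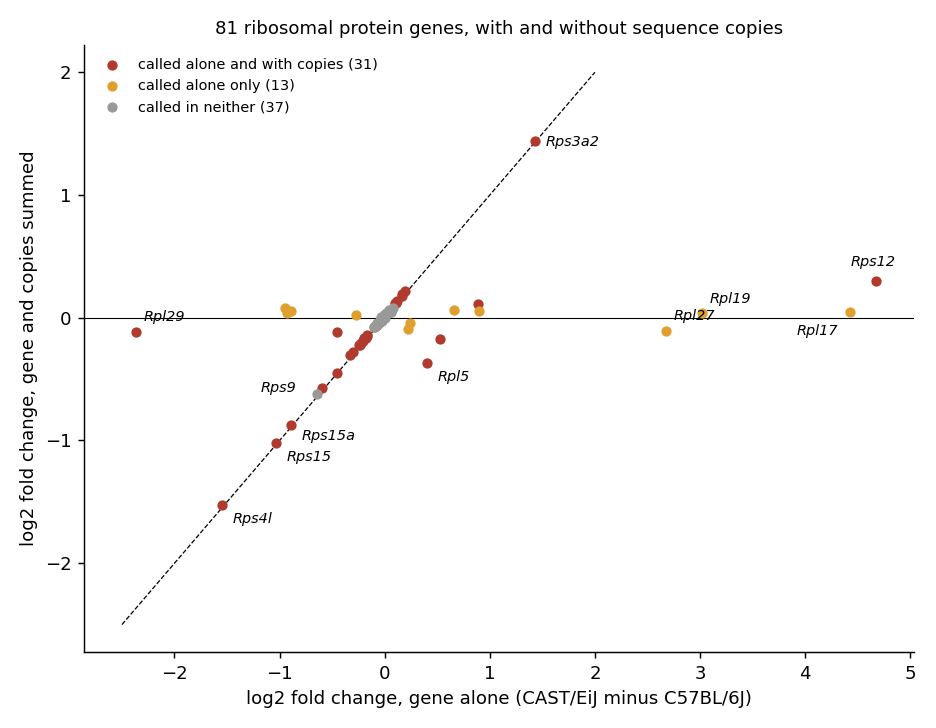
Log2 difference between CAST/EiJ and C57BL/6J for each of the 81 tested members, for the gene alone (horizontal axis) and for the gene and its copies summed (vertical axis), coloured by whether it passed edgeR's test at an adjusted p of 0.05, with equality as a dashed line. Rpl17, Rpl19, Rpl27, Rps12 and Rpl29 lie between -0.11 and 0.30 on the vertical axis and beyond 2 either way on the horizontal one, whereas Rps15, Rps15a, Rps9 and Rps4l lie on the dashed line. No copy of Rps15, Rps9 or Rps4l had a row in the count table, so nothing was added to their counts.

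Several small subunit genes differed between strains with no or hardly any counted copy. Rps15, a protein of the small subunit head, ran from 134 to 176 CPM in C57BL/6J (median 156), from 69.7 to 87.5 CPM in CAST/EiJ (median 76.8) and from 157 to 188 CPM in NZO/HlLtJ (median 165). CAST/EiJ lay below and apart from both other strains. The log2 difference from C57BL/6J was -1.04 (SE 0.05, edgeR adjusted p = 6.4e-17). Rps15 shared 43.3% of its coding 50-base stretches with other genes, and no copy of it had a row in the count table, so counts on copies of Rps15 are not seen here. Rps15a, a separate small subunit gene, ran from 124 to 134 CPM in C57BL/6J, from 64.3 to 73.8 CPM in CAST/EiJ and from 118 to 135 CPM in NZO/HlLtJ. Its copies summed to at most 0.28 CPM in any library, and its log2 difference was -0.90 alone and -0.87 with copies (SE 0.03 for both, edgeR adjusted p = 1.44e-21 alone). Rps9, which acts in decoding accuracy, had medians of 154, 99.8 and 150 CPM in C57BL/6J, CAST/EiJ and NZO/HlLtJ. Its highest CAST/EiJ library, at 120 CPM, was below its lowest C57BL/6J library, at 143 CPM, and the log2 difference was -0.60 (SE 0.05, edgeR adjusted p = 1.84e-11).

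Among large subunit genes, Rpl28 ran from 111 to 126 CPM in C57BL/6J, from 78.8 to 94.7 CPM in CAST/EiJ and from 97.8 to 125 CPM in NZO/HlLtJ. C57BL/6J and CAST/EiJ did not overlap, and the log2 difference was -0.46 alone and -0.45 with copies (SE 0.04 for both, edgeR adjusted p = 7.61e-11 alone). Rpl10, an X-linked gene whose protein completes the large subunit last, was lower in CAST/EiJ at -0.93 (SE 0.08, edgeR adjusted p = 1.8e-10), with means of 23.9 CPM in C57BL/6J and 12.6 in CAST/EiJ. Its copy Rpl10-ps3 held 73.1 and 86.2 CPM, and the summed difference was 0.04 (edgeR adjusted p = 0.571). Rpl35 was higher in CAST/EiJ by 0.89 (SE 0.08, edgeR adjusted p = 8.21e-11), with means of 5.82 and 10.8 CPM, while its copy Gm2000 stood at 63.7 and 63.5 CPM. For Rpl35 the sum still differed, by 0.12 (SE 0.05, edgeR adjusted p = 0.041).

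Rpl5 and Rpl11 bind 5S RNA together and, when ribosome assembly fails, also bind Mdm2, the regulator of p53. Rpl5 had medians of 21.4 CPM in C57BL/6J (18.7 to 25.5), 28.8 in CAST/EiJ (25.5 to 32.4) and 14.8 in NZO/HlLtJ (11.9 to 21.1). By median CAST/EiJ was highest and NZO/HlLtJ lowest. The range of C57BL/6J met that of CAST/EiJ only at its edge and overlapped that of NZO/HlLtJ. The log2 difference of CAST/EiJ from C57BL/6J was 0.40 (SE 0.07, edgeR adjusted p = 1.85e-05) for the gene and -0.37 (SE 0.04, edgeR adjusted p = 4.37e-09) with copies, since Gm15500 stood at 141 CPM in C57BL/6J and 96.0 in CAST/EiJ. Rpl11 had medians of 114, 118 and 124 CPM in C57BL/6J, CAST/EiJ and NZO/HlLtJ. Its ranges overlapped, and its log2 difference from C57BL/6J was 0.12 (SE 0.05, edgeR adjusted p = 0.0355) in CAST/EiJ and 0.18 (SE 0.05, edgeR adjusted p = 0.00374) in NZO/HlLtJ.

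The stalk genes differed little. Rplp0 ran from 130 to 151 CPM in C57BL/6J (median 143), from 109 to 136 CPM in CAST/EiJ (median 122) and from 111 to 169 CPM in NZO/HlLtJ (median 124). The ranges overlapped, with C57BL/6J the highest by median. The log2 difference of CAST/EiJ from C57BL/6J was -0.20 (SE 0.05, edgeR adjusted p = 0.00154). For NZO/HlLtJ it was -0.14 (SE 0.05, edgeR adjusted p = 0.0469), and that call was lost in 30 of the 36 fits that left out 1 library, with adjusted p up to 0.114 without NZO/HlLtJ female control replicate 3. Rplp1 did not pass in any strain comparison, with differences from C57BL/6J of -0.04 in CAST/EiJ and -0.01 in NZO/HlLtJ (SE 0.05 for both). Rplp2 passed only between NZO/HlLtJ and CAST/EiJ, at 0.12 (SE 0.05, edgeR adjusted p = 0.025), and not with members and copies summed (edgeR adjusted p = 0.0589).

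Paralog pairs were taken here as members with related symbols. Of the 5 paralogs with a row among the tested members, Rpl3l, Rpl22l1, Rpl7l1, Rps27l and Rps4l, 2 were lower in CAST/EiJ than in C57BL/6J, where 27.8% of all genes were. Rps4l, an annotated pseudogene of the Rps4 family, ran from 17.5 to 26.6 CPM in C57BL/6J (median 19.5), from 5.36 to 9.07 CPM in CAST/EiJ (median 7.60) and from 5.63 to 11.4 CPM in NZO/HlLtJ (median 8.85). C57BL/6J was above both other strains with no overlap. The log2 difference from C57BL/6J was -1.55 (SE 0.10, edgeR adjusted p = 5.32e-14) in CAST/EiJ and -1.27 (SE 0.10, edgeR adjusted p = 1.29e-11) in NZO/HlLtJ. Its partner Rps4x did not pass, with means of 152 CPM in C57BL/6J and NZO/HlLtJ and 150.4 in CAST/EiJ. Rpl7l1 was lower in CAST/EiJ, at -0.25 (SE 0.04, edgeR adjusted p = 2.35e-05), with means of 33.8 CPM in C57BL/6J and 28.5 in CAST/EiJ. Rpl22 itself, but not Rpl22l1, passed, at -0.19 (SE 0.05, edgeR adjusted p = 0.00144) for Rpl22 and -0.06 (SE 0.04, edgeR adjusted p = 0.181) for Rpl22l1. The difference between the partners was not tested. Rps27l stood at 6.65, 6.53 and 6.46 CPM in C57BL/6J, CAST/EiJ and NZO/HlLtJ and did not pass in any strain comparison. Rpl3l had at most 1.01 CPM in any library and was higher in NZO/HlLtJ than in CAST/EiJ (0.98, SE 0.29, edgeR adjusted p = 0.00502), with means of 0.434 and 0.21 CPM. Rpl3 stood at 354 to 464 CPM and did not pass in any strain comparison.

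Rps6 and Rps27a, which encodes a ubiquitin fusion that is split into ubiquitin and the ribosomal protein, did not pass between strains. Rps6 had medians of 241 CPM in C57BL/6J, 233 in CAST/EiJ and 237 in NZO/HlLtJ, and its log2 differences from C57BL/6J were -0.09 (SE 0.04, edgeR adjusted p = 0.077) in CAST/EiJ and -0.04 (edgeR adjusted p = 0.557) in NZO/HlLtJ. Rps27a had medians of 153, 144.5 and 144.7 CPM. Of the 4 X-linked members, Rps4x, Rpl10, Rpl36a and Rpl39, only Rpl10 passed between CAST/EiJ and C57BL/6J, and none passed between NZO/HlLtJ and C57BL/6J.

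**Figure D4:**
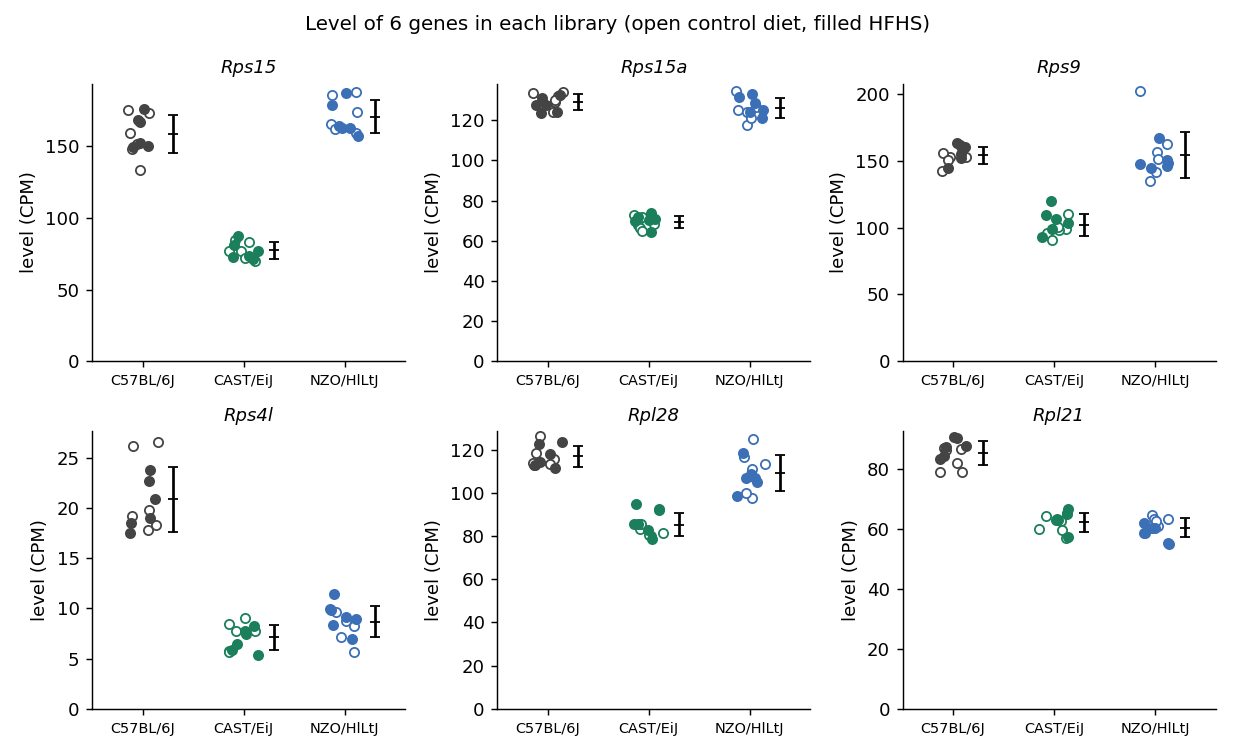
Level in CPM of Rps15, Rps15a, Rps9, Rps4l, Rpl28 and Rpl21 in each library by strain (open control, filled HFHS), with the mean and SD over 12 libraries beside the points. Rps15, Rps15a, Rps9 and Rpl28 are lowest in CAST/EiJ, and Rps4l and Rpl21 are highest in C57BL/6J.

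NZO/HlLtJ differed from C57BL/6J in few members. Besides Rpl11, Rplp0, Rpl5 and Rps4l, the members that passed were Rps27, Rpl34, Rpl17 and Rpl21. Rps27, of the small subunit, ran from 54.6 to 74.3 CPM in C57BL/6J (median 66.2) and from 67.3 to 97.8 CPM in NZO/HlLtJ (median 75.8), with overlap and a log2 difference of 0.23 (SE 0.05, edgeR adjusted p = 0.00142). Rpl21, of the large subunit, ran from 79.1 to 90.8 CPM in C57BL/6J (median 86.7) and from 55.0 to 64.7 CPM in NZO/HlLtJ (median 60.9), with no overlap. Its log2 difference was -0.50 (SE 0.03, edgeR adjusted p = 1.14e-13), and -0.23 (SE 0.03, edgeR adjusted p = 8.39e-06) with its copies, which stood at 0.81 CPM in C57BL/6J and 13.2 in NZO/HlLtJ. Rpl5 was lower, at -0.47 (SE 0.07, edgeR adjusted p = 7.49e-06). Of the counts of Rpl5 and its copies, the copies held 86.8% in C57BL/6J and 89.6% in NZO/HlLtJ. Over the alternative fits, which include the sum with copies, the Rpl5 difference ran from -0.52 to -0.13. Rpl17 was also lower, at -0.42 (SE 0.09, edgeR adjusted p = 0.00108), with a sum of 0.09 for Rpl17 and its copies (edgeR adjusted p = 0.0843). Rpl34 was higher by 0.16 (SE 0.05, edgeR adjusted p = 0.0306), a call lost in 6 of the 36 fits that left out 1 library, with adjusted p up to 0.0743 without NZO/HlLtJ male control replicate 1. Members whose libraries did not overlap between these strains numbered 0 higher and 2 lower in NZO/HlLtJ, where 1.62% and 2.05% of all genes did so. With copies summed, 8 members passed, 4 higher and 4 lower, where 24.1% of all genes did. Both fits called 6 members, 2 passed only with copies and 2 only without.

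Between NZO/HlLtJ and CAST/EiJ the members that differed most again included Rpl17, Rps12, Rpl19, Rpl27, Rpl29, Rps13 and Rpl37. The counts of these genes lay in large part on copies in 1 of the strains. Rpl29 (2.46, SE 0.07), Rps15 (1.14, SE 0.05), Rps13 (1.02, SE 0.06), Rpl37 (1.00, SE 0.05) and Rpl10 (0.98, SE 0.08) were the highest in NZO/HlLtJ on the log2 scale, followed by Rps15a, Rps9, Rpl28 and Rps21 at 0.86 to 0.34. Rpl17 (-4.85, SE 0.10), Rps12 (-4.48, SE 0.25), Rpl19 (-2.95, SE 0.10), Rpl27 (-2.596, SE 0.06) and Rpl35 (-1.06, SE 0.08) were the lowest. With copies summed, 35 members passed where 50.5% of all genes did, 31 of them in both fits and 4 of those with the opposite sign. Without copies, 9 members were higher and 9 lower in NZO/HlLtJ with no overlap between libraries, where 6.34% and 4.24% of all genes were. Between CAST/EiJ and C57BL/6J the counts were 8 higher and 12 lower in CAST/EiJ, where 5.2% and 7.42% of all genes were.

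Diet moved no member past the test. In C57BL/6J, 0 of 81 members passed between HFHS and control by edgeR's test, 0 had an unadjusted p under 0.05, and 0% of all genes passed. In CAST/EiJ 0 members passed where 0.343% of all genes did (0.139% higher and 0.204% lower), with 2 at an unadjusted p under 0.05, and in NZO/HlLtJ 0 passed where 0.0547% of all genes did (0.00995% higher and 0.0448% lower), with 0 at an unadjusted p under 0.05. Averaged over the strains 0 passed, where 0.149% of all genes did (0.0845% higher and 0.0647% lower), and 0 had an unadjusted p under 0.05. The interaction of strain and diet gave 0 members and 0% of all genes, with 1 member at an unadjusted p under 0.05. DESeq2 and limma on the deposited values also gave 0 members in each of these comparisons.

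The diet differences that came nearest to the test were small. In CAST/EiJ, Rps6 ran from 195 to 244 CPM on control (median 225) and from 219 to 268 CPM on HFHS (median 244). The groups overlapped, and the log2 difference was 0.12 (SE 0.06, edgeR adjusted p = 0.266). Rps3a1, of the small subunit, had medians of 195 CPM on control and 209 on HFHS in CAST/EiJ, with a log2 difference of 0.11 (SE 0.05, edgeR adjusted p = 0.267). In NZO/HlLtJ, Rpl7 ran from 98.3 to 127 CPM on control (median 114) and from 98.1 to 121 CPM on HFHS (median 102), with a log2 difference of -0.10 (SE 0.05, edgeR adjusted p = 0.543). In C57BL/6J, Rpl12 had medians of 8.89 CPM on control and 10.3 on HFHS, with a log2 difference of 0.14 (SE 0.08, edgeR adjusted p = 1).

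The members leaned one way within each strain without any passing. The median log2 difference between HFHS and control was 0.03 in C57BL/6J, with 61 of 81 members above 0, 0.04 in CAST/EiJ, with 67 above 0, and -0.05 in NZO/HlLtJ, with 68 below 0. The median over all genes was 0.00 in each strain. The members share libraries and are not replicates. Each median rested on 1 library: it was -0.000689 in C57BL/6J without female control replicate 1, -0.00119 in CAST/EiJ without male HFHS replicate 3, and -8.36e-05 in NZO/HlLtJ without male control replicate 1, the library with pituitary hormone reads. With the mean log2 level of the Hox genes as a covariate the medians were 0.02 in C57BL/6J, 0.02 in CAST/EiJ and -0.06 in NZO/HlLtJ, and they were 0.03, 0.06 and -0.08 when the 3 libraries under 5 CPM of Hox genes were left out. Sums of tissue and cell markers also differed between diets. In CAST/EiJ the 22 Hox genes summed to 1.14 to 244 CPM on control and 233 to 333 CPM on HFHS. There the 6 granule cell markers gave 82.7 to 1689 and 78.6 to 592 CPM, and the 5 red blood cell markers 654 to 2538 and 209 to 384 CPM. The 5 astrocyte markers gave 1340 to 1565 and 1608 to 1779 CPM, with no overlap. In the other strains Hox and red blood cell sums shifted the same way by median, with overlap. On control and HFHS, Hox medians were 50.8 and 173 CPM in C57BL/6J, and 59.9 and 102 in NZO/HlLtJ. Red blood cell medians were 1484 and 525 CPM in C57BL/6J, and 1302 and 752 in NZO/HlLtJ. The part of these markers in the members' medians was not tested.

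**Figure D5:**
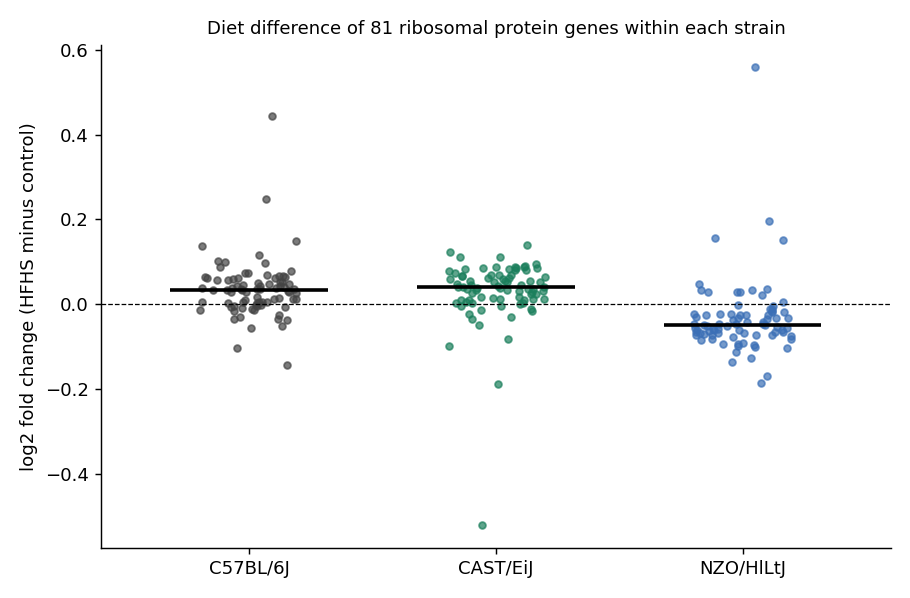
Log2 difference between HFHS and control diet within each strain for the 81 tested members, 1 point a gene, with the median as a black bar at 0.03 in C57BL/6J, 0.04 in CAST/EiJ and -0.05 in NZO/HlLtJ. The points gather near 0 in all 3 strains, and none passed edgeR's test.

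Sex, averaged over strains and diets, gave 0 members by edgeR's test where 0.0796% of all genes passed (0.0249% higher and 0.0547% lower in males), with 2 members at an unadjusted p under 0.05 and 0 by DESeq2 or limma. The lowest p was that of Rps12. In C57BL/6J it ran from 0.693 to 4.89 CPM in females (median 1.52) and from 1.77 to 7.49 in males (median 2.82), and in NZO/HlLtJ from 0.829 to 2.64 in females (median 1.40) and from 2.22 to 10.1 in males (median 4.56). Males were higher by median in these strains with overlap, and in CAST/EiJ, where most counts lay on the gene, the medians were 59.55 CPM in females and 59.35 in males. The log2 difference between males and females was 0.86 (SE 0.20, edgeR adjusted p = 0.134). It passed when any 1 of 3 libraries was left out (C57BL/6J female HFHS replicate 3, adjusted p = 0.0226; C57BL/6J male control replicate 3, 0.0497; NZO/HlLtJ male control replicate 3, 0.0396), and it was 0.04 for Rps12 and its copies summed.

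The other genes of ribosome production and translation were taken as lists. Copies were sought for members only, so counts on copies of these genes were not looked at. Among the ribosomal proteins that the symbol rule misses, Fau was higher in CAST/EiJ than in C57BL/6J by 1.03 (SE 0.07, edgeR adjusted p = 1.11e-13), with means of 39.3 CPM in C57BL/6J and 80.2 in CAST/EiJ, and Rpsa was lower at -0.19. Of 16 elongation factors and other mRNAs with a TOP motif, 0 were higher and 7 lower in CAST/EiJ, where 24.5% of all genes were higher and 27.8% lower, among them the nucleolar protein gene Npm1 at -0.27 (SE 0.03, edgeR adjusted p = 7.12e-10); the median of the list was -0.07 and that of all genes -0.01. Of 30 ribosome biogenesis genes, 4 were higher and 9 lower, and of 15 genes that control ribosome production, 3 were higher and 3 lower, near or below the shares of all genes. In the latter, Mtor (0.21, SE 0.03, edgeR adjusted p = 1.81e-06) and Tsc1 (0.24, SE 0.03, edgeR adjusted p = 1.14e-08) were higher, and Tsc2, the partner of Tsc1, was lower (-0.21, SE 0.03, edgeR adjusted p = 3.55e-08). The 77 mitochondrial ribosomal protein genes had 20 higher and 21 lower, close to the shares of all genes. Between NZO/HlLtJ and C57BL/6J these lists gave 1 higher and 4 lower of the 16, 2 and 12 of the 30, 1 and 1 of the 15, and 5 and 15 of the 77, where 11.7% of all genes were higher and 12.3% lower. No gene of any of these lists passed for diet in any strain.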

How the data were processed

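Bulk polyA RNA-seq was made from 100 ng of RNA and sequenced as 100-base read pairs, per the labels' protocols; the submitters' processing notes name GRCm38, and which aligner, counter and reference for each strain were used is not given in the sources used here. The deposited values are expected counts per gene (18.7 to 22.7% of values in a library are fractional) and log2-scale variance-stabilised values, for which the submitters' processing notes name DESeq2. The authors' gene positions are deposited in Mb. Expected counts were rounded and fitted with edgeR 4.0.16 (R 4.3.3; TMM factors 0.959 to 1.04, filterByExpr at 10 counts, 12 group means, quasi-likelihood test, Benjamini-Hochberg adjustment over 20108 genes). CPM use these factors. DESeq2 1.42.0 and limma 3.58.1 on the deposited log2 values were alternatives. A copy is a gene that is no member, holds at least 5% of a member's coding 50-base stretches, has at least 10% of its own in that member and spans at most 5000 bases unless a pseudogene; its counts went to the member with the highest counts. Members named are all that passed in a comparison, or the 10 most changed a direction with at least 1 CPM, the 3 lowest p where none passed, and a list by role; a few genes that this rule or the lists hold are not reported here. The members and lists were chosen with earlier results of these data known. The edgeR test was tested on simulated data for CAST/EiJ against C57BL/6J. It recovered 18 of 49 genes changed 1.25-fold, 40 of 49 changed 1.5-fold and 47 of 48 changed 2-fold. The diet comparisons, which have fewer libraries within a strain, were not simulated.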

Additional observations from a re-analysis of the deposited data

How the results depend on the processing

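No paired analysis was possible because the labels number no replicates. The counts of members called in each strain, diet and interaction comparison stayed within 1.5 times the main count under every alternative run. Leaving out 1 library gave 6 to 10 members between NZO/HlLtJ and C57BL/6J, 40 to 43 between CAST/EiJ and C57BL/6J, 35 to 50 between NZO/HlLtJ and CAST/EiJ, and 0 to 1 for sex. The mean summed level with pseudogenes of the members' symbols added was 8504 CPM in C57BL/6J and 8613 in NZO/HlLtJ, and with copies by sequence it was 9175 in C57BL/6J, 8600 in CAST/EiJ and 9302 in NZO/HlLtJ. The sum with copies by sequence and edgeR's robust dispersions were chosen after seeing the data. Among the members named because they passed or had the lowest p in a comparison, signs turned only when copies were added. With symbol pseudogenes, and with copies by sequence second, the log2 differences were, between CAST/EiJ and C57BL/6J, -0.1098 and -0.1093 for Rpl27, -0.04442 and -0.04422 for Rpl10a, 0.04043 and 0.04065 for Rpl10, and 0.07866 and 0.07964 for Rps13; between NZO/HlLtJ and CAST/EiJ, 0.1314 and 0.1306 for Rpl27, 0.005107 and 0.005381 for Rpl19, and 0.04606 and 0.04631 for Rpl17; and between NZO/HlLtJ and C57BL/6J, 0.09312 and 0.09375 for Rpl17. With copies by sequence alone they were -0.1753 for Rpl7, -0.3662 for Rpl5 and 0.05678 for Rpl37 between CAST/EiJ and C57BL/6J; 0.1089 for Rpl7, 0.06778 for Rpl23a and 0.2394 for Rpl5 between NZO/HlLtJ and CAST/EiJ; and 0.007408 for Rpl5 with diet averaged over the strains. Rplp0 between NZO/HlLtJ and C57BL/6J lost its call in 5 alternatives other than leaving out 1 library, among them without the 3 libraries almost lacking Hox reads (-0.1013, edgeR adjusted p = 0.123).
The depth limits members below 1 CPM, where the standard errors reached several times those of the others.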
